A study of Mus musculus with 9 samples.

Results

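Pushen, a commercial drug preparation, was compared with its vehicle in mouse brain tissue after photothrombosis (PT), which makes a stroke in the cortex by lighting a circulating dye so that vessels clot. The comparison takes 6 of the 9 libraries of the study, 3 labelled Pushen and 3 labelled PT, and all genes were examined: 16740 of the 55401 genes in the table had a mean of at least 0.5 FPKM (fragments per kilobase, scaled to library size) over the 9 libraries and were tested. All mice were wild type (WT). The PT group had photothrombosis and received ultrapure water by gavage. The Pushen group had photothrombosis and received Pushen dissolved in ultrapure water by oral gavage, begun 24 h after surgery and continued for 28 days. Labelled doses of Pushen were 391, 392 and 393 mg/kg, 1 library a dose, and the 3 were taken as 1 group. The 3 sham libraries came from operated mice without photothrombosis that received the same water. All libraries are labelled day 28 and peri-infarct, but nothing in the labels tells whether each library is a different animal. The p-values therefore cover only the spread among these libraries, and that spread may be technical.

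In the weeks after a cortical infarct, the surrounding tissue holds activated microglia and macrophages that clear debris, reactive astrocytes that border the lesion, fibroblast-like cells that lay down matrix, and surviving neurons. Microglia and macrophages there express complement and lysosomal genes, and several cell types can answer type I interferon through a cell-surface receptor that signals to the nucleus. Neurons that fire induce immediate early genes, short-lived transcripts of transcription factors and of effectors. In bulk tissue fewer cells of a type and less RNA per cell cannot be told apart.

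The deposited counts summed to between 64482908 and 75100133 in the PT libraries and between 57437342 and 73499628 in the Pushen libraries. The mitochondrial share of counts was 7.05% to 9.28% over the 9 libraries. Brain is the labelled tissue, although retinas are named in the labelled extraction step. Only 2 of 18 photoreceptor genes reached the expression filter, while the neuronal marker Rbfox3 stood between 42.64 and 64.37 FPKM in all 9 libraries. Several infarct libraries stood apart. The mean level of the striatal neuron list above sham, on the log2 scale, was 2.83, 0.97 and -0.13 in PT libraries 1, 2 and 3. The Pushen libraries gave 0.64, 0.59 and 0.12. The choroid plexus list was high in PT library 1 (3.95) and Pushen library 2 (4.06), with the other 4 infarct libraries at 1.25 to 2.14. Pushen library 3 was the lowest of the 6 infarct libraries in 30 of the 48 gene lists examined, and PT library 1 was the highest in 21 of them. The counts and medians of the lists moved with these libraries, and the range on leaving out single libraries stands beside the lists it moved most.

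No gene passed the test at an adjusted p under 0.05 (edgeR quasi-likelihood test with Benjamini-Hochberg adjustment), so the share called was 0%, and the smallest adjusted p was 0.375 in edgeR. At an unadjusted p under 0.05, 507 genes stood higher with Pushen (3.03%) and 579 lower (3.46%), 6.49% in all. At an unadjusted p under 0.01 there were 184 genes, 1.10% of those tested. In log2 CPM (counts scaled to library size), the scale used for overlap throughout, all 3 Pushen libraries stood above all 3 PT libraries for 1046 genes (6.25%) and below them for 999 (5.97%). The median log2 fold change over all tested genes was -0.0081. DESeq2 called 48 of the same genes, 20 higher and 28 lower, among them 22 of the 24 genes chosen for naming, so the call depends on the tool. Leaving out PT library 3 raised the numbers at an unadjusted p under 0.05 to 963 higher and 957 lower, and leaving out PT library 1 lowered the second to 381. List counts given below without PT library 3 therefore stand beside 963 and 957 of the 16740 genes, and not beside 507 and 579. At the adjusted threshold edgeR called 1 gene without sham library 1, 1 without PT library 3, 1 without Pushen library 2 and 5 without Pushen library 3.

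Most intervals were narrow. The median standard error (SE) of a log2 fold change was 0.153, with quartiles of 0.107 and 0.252. The 95% interval lay within a 2-fold change in either direction for 13892 genes (83.0%) and within a 1.5-fold change for 9800 (58.5%). For those genes these libraries bound the size of a difference, given the spread between them. The log2 fold change was beyond 1 in either direction for 275 genes (1.64%).

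**Figure D1:**
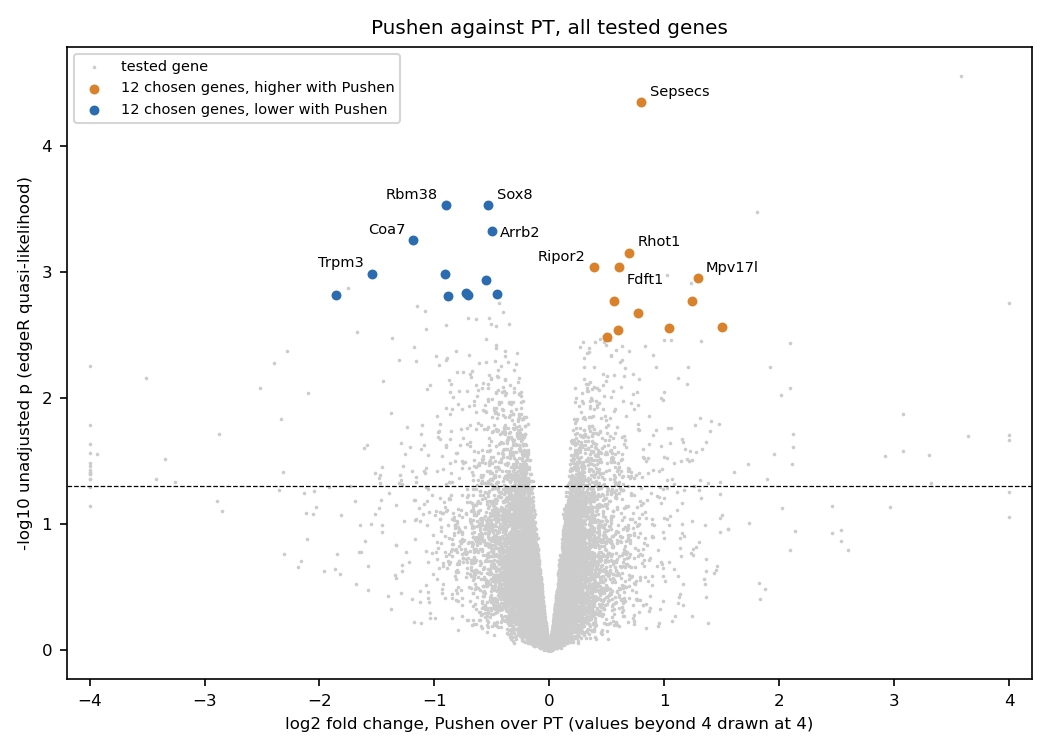
Each point is 1 of the 16740 tested genes, with its log2 fold change of Pushen over PT on the horizontal axis and the -log10 of its unadjusted edgeR p on the vertical axis. The dashed line marks an unadjusted p of 0.05. The 12 genes chosen on each side, coloured, lie among the smallest p-values, and Sepsecs stands highest of them; no gene reached an adjusted p under 0.05.

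Sepsecs, the enzyme that completes selenocysteine on its transfer RNA, had the smallest p of the 24 genes chosen (chromosome 5, 52640087 to 52669708, GRCm38 coordinates as in the table). It stood at 1.78, 1.44 and 1.42 FPKM in PT and at 2.74, 2.74 and 2.68 FPKM with Pushen. Groups that do not overlap were a condition for all 24 genes chosen, so the gap is no separate result. The Pushen libraries lay in the range of the sham libraries (2.73, 2.55 and 2.78 FPKM). The log2 fold change was 0.80 ± 0.11 (SE), a 1.74-fold difference with a 95% interval of 0.55 to 1.05 on the log2 scale (edgeR adjusted p = 0.375). Its PT minus sham value, which shares the PT libraries, was -0.85 ± 0.11. Of the 17 tested genes of selenoproteins and selenium handling, Sepsecs was the 1 with an unadjusted p under 0.05. Over all genes 3.03% stood higher at that p. Pstk, the kinase of the preceding step of the same pathway, stood at 1.60, 1.56 and 1.55 FPKM in PT and 1.81, 1.71 and 1.95 FPKM with Pushen, without overlap (0.20 ± 0.09). It overlaps Fgfr2 and Ikzf5 in the table, so its count is uncertain. The selenoenzymes Gpx1 (-0.31 ± 0.15) and Gpx4 (-0.21 ± 0.11) lay on the other side of 0, and the list's median was -0.05.

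The other 11 genes chosen on the higher side had an edgeR adjusted p of 0.707, as did all 12 on the lower side. Rhot1, a mitochondrial GTPase that links mitochondria to motor proteins, stood at 5.69, 3.93 and 4.09 FPKM in PT and at 7.69, 7.01 and 7.67 FPKM with Pushen (0.69 ± 0.14). Its sham libraries held 8.16, 7.49 and 7.54 FPKM, so the PT libraries were the low ones. The gene was chosen by its gap from those same PT libraries, so the nearness of Pushen to sham is no separate result. Fdft1, squalene synthase of the cholesterol pathway, stood at 8.01, 10.17 and 10.46 FPKM in PT and 13.73, 13.45 and 16.56 FPKM with Pushen (0.60 ± 0.12). It overlaps Ctsb, a lysosomal protease gene, and without a stated strand reads in the shared stretch cannot be told apart. Ripor2 showed a smaller difference with a narrow error (0.39 ± 0.08), from 2.47 to 2.80 FPKM in PT and from 3.36 to 3.73 FPKM with Pushen. Mpv17l had 5.22, 5.03 and 5.75 FPKM in PT and 14.83, 9.84 and 14.79 FPKM with Pushen, a 2.44-fold difference (1.29 ± 0.27). Sham library 1 held 7.35 FPKM of Mpv17l and the other two sham libraries 15.44 and 15.71 FPKM.

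Gigyf2, a factor in translational repression, differed by 0.56 ± 0.13 and overlaps Kcnj13, a choroid plexus gene. Fstl5, a secreted follistatin-like protein, stood between 0.53 and 0.78 FPKM in PT and between 1.03 and 1.11 FPKM with Pushen (0.77 ± 0.18). Gabpb1, a subunit of a transcription factor of nuclear mitochondrial genes, stood at 1.03 ± 0.13 FPKM in PT and 2.13 ± 0.15 FPKM with Pushen (SD, n = 3; 1.04 ± 0.26). Its sham libraries held 0.89, 1.53 and 2.09 FPKM, and so spread from the PT level to the Pushen level. St3gal1, a sialyltransferase, stood between 2.35 and 3.22 FPKM in PT and between 3.67 and 4.10 FPKM with Pushen (0.50 ± 0.12). Gatad2b, a subunit of the NuRD chromatin complex, held 5.63 and 5.94 FPKM in Pushen libraries 1 and 2, but 1.82 FPKM in library 3, against 1.37, 1.52 and 1.78 FPKM in PT. Its log2 fold change was 1.5 ± 0.37, and without Pushen library 3 it was 1.87 (edgeR adjusted p = 0.00399). That fit leaves out the Pushen library nearest PT, so its smaller p is no separate result. Gvin1 belongs to the interferon-induced GTPases described further on.

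Among the genes that stood lower with Pushen, Sox8 and Rbm38 had the smallest p. Sox8, a transcription factor of oligodendrocytes and other glia, stood at 14.63, 14.58 and 15.11 FPKM in PT and at 9.77, 11.5 and 9.64 FPKM with Pushen. Both groups lay above sham (7.83, 7.64 and 8.73 FPKM), and the gap between them was a condition of the choice. Its log2 fold change was -0.53 ± 0.09, with an interval of -0.74 to -0.32. Sox8 overlaps Cerox1, so its count is uncertain. Rbm38, an RNA-binding protein that is a target of p53, stood at 1.67, 1.54 and 1.77 FPKM in PT and 0.84, 0.94 and 0.90 FPKM with Pushen (-0.90 ± 0.16). Arrb2, beta-arrestin 2, which uncouples receptors from G proteins, stood at 17.7 ± 0.9 FPKM in PT and 12.6 ± 1.07 FPKM with Pushen (-0.50 ± 0.09). Pak4, a kinase of the actin cytoskeleton that overlaps Samd4b, had 4.26, 4.0 and 3.77 FPKM in PT and 3.12, 2.94 and 2.79 FPKM with Pushen (-0.45 ± 0.10).

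Ajuba, a scaffold of cell junctions and Hippo signalling, stood at 1.97, 1.80 and 1.47 FPKM in PT and at 1.11, 0.91 and 0.79 FPKM with Pushen (-0.91 ± 0.19). Trib1, a pseudokinase that directs protein degradation, differed by -0.55 ± 0.12. Trpm3, a cation channel, stood at 2.56, 2.0 and 2.79 FPKM in PT and 0.78, 1.32 and 0.44 FPKM with Pushen (-1.54 ± 0.32). Its sham libraries held 0.69, 0.76 and 0.72 FPKM, and it overlaps Mir204 among others. Coa7, a mitochondrial assembly factor, stood at 2.99 ± 0.20 FPKM in PT and at 1.13, 0.98 and 1.85 FPKM with Pushen (-1.18 ± 0.23). Without Pushen library 3 its log2 fold change was -1.52 (edgeR adjusted p = 0.0158). Here too the library left out was the Pushen library nearest PT, so this p is no separate result. Acaa1b, a peroxisomal thiolase that overlaps Dlec1, stood between 1.14 and 2.63 FPKM in PT and between 0.43 and 0.63 FPKM with Pushen (-1.86 ± 0.41). The zinc finger gene Zfp641 stood at 4.03, 3.37 and 4.09 FPKM in PT and 1.90, 2.12 and 2.25 FPKM with Pushen (-0.88 ± 0.20), while sham held 3.99, 4.03 and 2.45 FPKM. The remaining pair, Junb and Ier2, are immediate early genes.

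**Figure D2:**
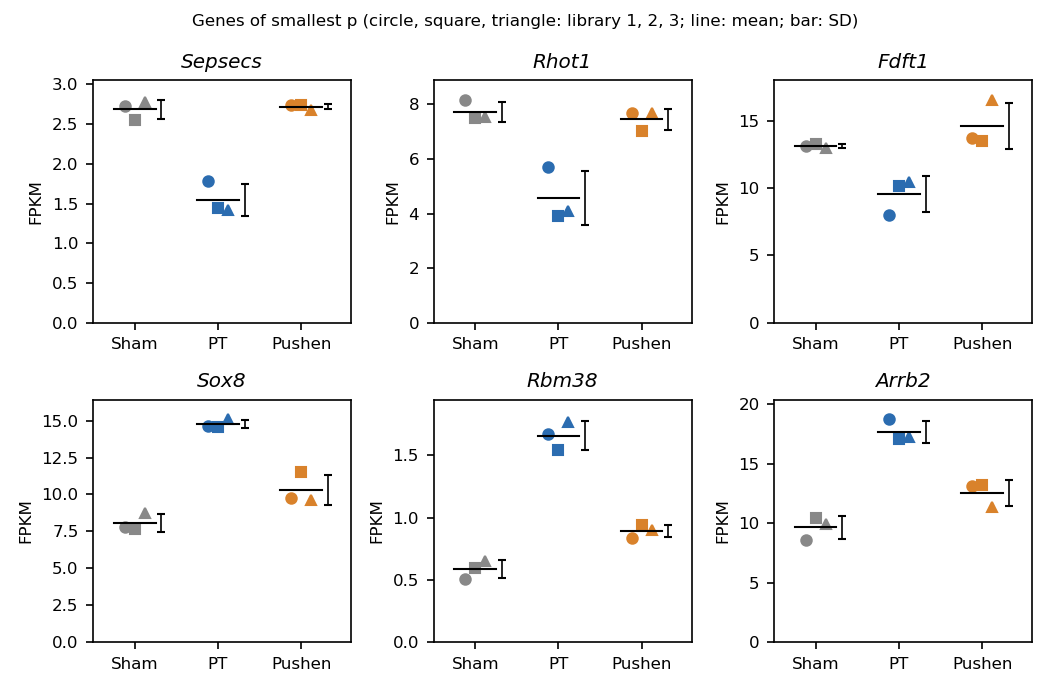
FPKM on the vertical axis, starting at 0, for the 3 genes of smallest p on each side in the sham, PT and Pushen libraries; circles, squares and triangles are libraries 1, 2 and 3, the line is the mean and the bar the SD. Sepsecs, Rhot1 and Fdft1 were lowest in all 3 PT libraries, and Sox8, Rbm38 and Arrb2 were highest in all 3 PT libraries. That PT and Pushen do not overlap was a condition of their choice. Sham and Pushen are set against the same PT libraries, so their nearness is no separate result.

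Several immediate early genes stood lower with Pushen. Of 19 tested transcription factors of this class, 6 had an unadjusted p under 0.05 on the lower side and 0 on the higher side, and 7 had all 3 Pushen libraries below all 3 PT libraries, beside 3.46% and 5.97% over all genes. The list's median log2 fold change was -0.25, against -0.0081 over all genes, and 16 of 19 values were negative. Its mean log2 level over sham was 0.68, 0.89 and 1.18 in PT and 0.63, 0.63 and 0.60 with Pushen. The groups did not overlap, and the Pushen libraries were close together. With each library left out in turn, between 4 and 7 genes had a p under 0.05 on the lower side.

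Junb, an AP-1 subunit, stood at 49.59, 42.21 and 54.75 FPKM in PT, at 30.76, 29.62 and 28.96 FPKM with Pushen and at 15.98, 24.02 and 25.04 FPKM in sham. Its log2 fold change was -0.72 ± 0.16, an interval of -1.09 to -0.36 (edgeR adjusted p = 0.707). Ier2, a small nuclear regulator, stood at 9.08, 8.29 and 9.95 FPKM in PT and 6.17, 6.0 and 4.65 FPKM with Pushen (-0.71 ± 0.16). Both genes were chosen among those whose groups did not overlap, so the gap between their groups was set by the choice. Fos, the partner of Jun in AP-1, stood at 14.71, 13.42 and 19.94 FPKM in PT and 11.32, 9.22 and 9.90 FPKM with Pushen (-0.67 ± 0.19), with sham between 3.80 and 5.83 FPKM. Nr4a1, an orphan nuclear receptor, stood at 30.27, 30.64 and 54.06 FPKM in PT and 17.08, 23.50 and 21.42 FPKM with Pushen (-0.90 ± 0.24). Its sham libraries held 17.96, 23.32 and 25.59 FPKM, near the Pushen libraries. Sham and Pushen are set against the same PT libraries, so this nearness is no separate result. Fosl2 (-0.46 ± 0.16), Egr2 (-0.66 ± 0.29) and Jund (-0.20 ± 0.10) also had groups that did not overlap, the last 2 with an unadjusted p of 0.0523 and 0.071. Jun (-0.40 ± 0.15) overlapped between the groups: 23.60, 20.93 and 26.25 FPKM in PT and 21.49, 18.89 and 13.76 FPKM with Pushen.

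The list of activity-induced effectors was similar in direction. Of 23 tested, 4 had an unadjusted p under 0.05 on the lower side and 0 on the higher side, and 5 had every Pushen library below every PT library, beside 3.46% and 5.97% over all genes. The median was -0.28. Arc, which traffics glutamate receptors at active synapses, stood at 56.81, 72.04 and 143.56 FPKM in PT and at 30.99, 38.33 and 36.86 FPKM with Pushen. PT library 3 was the high one, and the Pushen libraries lay within the sham range of 26.09 to 49.65 FPKM. For Arc too both are set against the same PT libraries. Its log2 fold change was -1.37 ± 0.35 (edgeR adjusted p = 0.707; DESeq2 adjusted p = 0.0162). Dusp1, a phosphatase that switches off MAP kinases, stood at 13.62, 11.98 and 19.27 FPKM in PT and 7.78, 10.73 and 8.31 FPKM with Pushen (-0.75 ± 0.21). It overlaps Ergic1. Ier3 (-0.46 ± 0.13) and Gadd45b (-0.45 ± 0.13), stress-induced regulators of survival, also had no overlap: Gadd45b stood at 13.41, 11.23 and 12.67 FPKM in PT and 9.86, 9.72 and 8.01 FPKM with Pushen. Zfp36 (-0.57 ± 0.27), which destabilises cytokine messages, and the matrix protein Ccn1 (-0.87 ± 0.41) overlapped between the groups. The median of the effectors was -0.09 without PT library 3, in which Arc, Nr4a1, Fos and Dusp1 were highest. The number below a p of 0.05 on the lower side was 7 without PT library 1, PT library 2 or Pushen library 2.

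Effectors of this kind are textbook targets of the factor CREB, which binds the cAMP response element, TGACGTCA, a sequence that reads the same on both strands. Promoter windows of 250 bases before to 50 bases after the gene start were taken from RefSeq (GRCm38.p6). The element was in the windows of 5 of 15 effectors with a window (33.3%; Btg2, Dusp1, Pcsk1, Plk2 and Ppp1r15a), in 0 of 16 transcription factors, and in 3.21% of the 10857 tested genes with a window. The CArG box, the site of serum response factor, was in 2 of 15 effectors (Dusp5 and Zfp36), in 0 of 16 transcription factors and in 1.22% of tested genes. A match is a run of letters and not a measured site. Elements further upstream or with variant letters were not searched, so 0 of 16 does not mean that those genes lack them. The window of Dusp1 is shown because it joins an element to an effector of low p; it is chr17:26508423-26508722, minus strand, read 5′ to 3′ with the element in capitals from position -143.
Dusp1: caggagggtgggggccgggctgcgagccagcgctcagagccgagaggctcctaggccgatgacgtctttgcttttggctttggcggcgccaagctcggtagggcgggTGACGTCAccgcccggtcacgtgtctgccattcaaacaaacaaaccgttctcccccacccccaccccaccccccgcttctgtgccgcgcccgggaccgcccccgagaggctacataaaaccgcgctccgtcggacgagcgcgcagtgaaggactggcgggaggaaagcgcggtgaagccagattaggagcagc

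**Figure D3:**
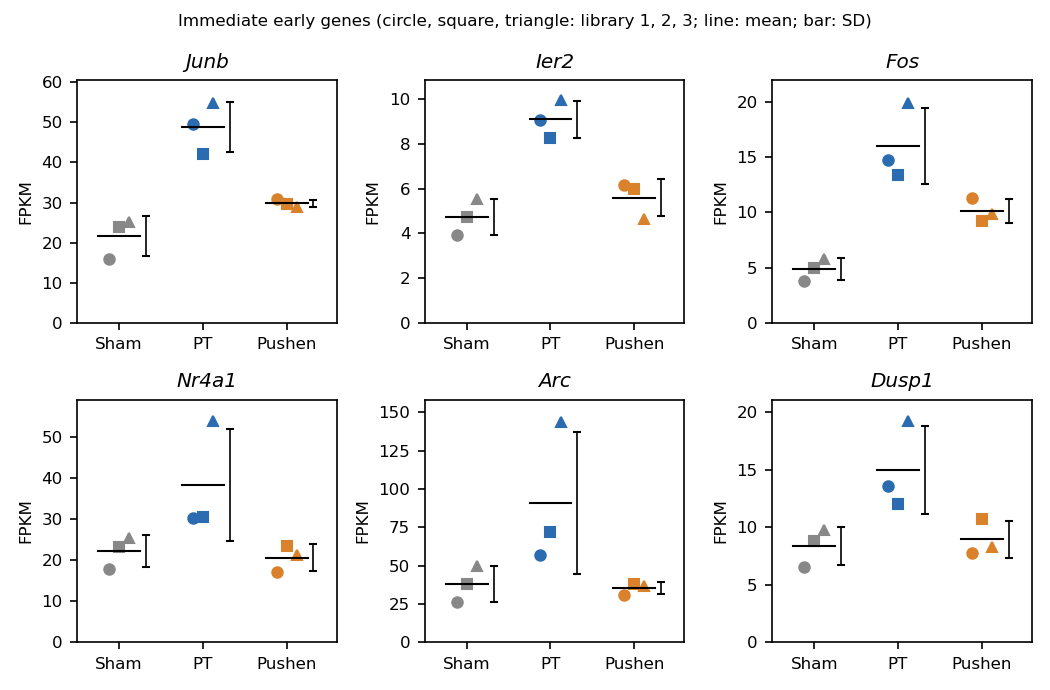
FPKM on the vertical axis, starting at 0, of 6 immediate early genes in the sham, PT and Pushen libraries; circles, squares and triangles are libraries 1, 2 and 3, the line is the mean and the bar the SD. Every Pushen library lay below every PT library in all 6 genes, and PT library 3 was the highest of the PT libraries.

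Nearly all genes of 2 interferon lists had positive differences, most with an unadjusted p above 0.05 and varying between libraries, while antigen presentation genes did not. Of 34 tested genes of the type I interferon response, 33 had a positive log2 fold change, with a median of 0.50 and a range of -0.02 to 1.49. Of these, 8 had an unadjusted p under 0.05 on the higher side and 0 on the lower, and 5 had every Pushen library above every PT library, beside 3.03% and 6.25% over all genes. Of 14 interferon-induced GTPases, which attack intracellular pathogens, all 14 were positive (median 0.37), 6 had a p under 0.05 and 4 did not overlap. The mean log2 level of the type I list over sham was 2.90, 1.80 and 2.63 in PT and 2.93, 3.51 and 2.80 with Pushen. PT library 2 was the lowest and Pushen library 2 the highest of the 6. The latter was also the library highest in choroid plexus genes, and the part of that tissue in the result was not tested.

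The counts followed those libraries. Without Pushen library 2, 1 of the 34 type I genes had a p under 0.05 on the higher side (median 0.30), and without PT library 2 there were 2 (median 0.28). Without PT library 1 there were 19 (median 0.93). For the GTPases the counts were 3, 3 and 9 of 14. With PT library 1 and Pushen library 2 both left out, a choice made after seeing the data, they were 8 of 34 (median 0.57) and 5 of 14 (median 0.43).

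Isg15, a ubiquitin-like modifier, stood at 12.19, 4.49 and 11.73 FPKM in PT and 14.03, 24.34 and 17.61 FPKM with Pushen (0.97 ± 0.36; edgeR adjusted p = 0.707). Rsad2, an antiviral enzyme, stood at 2.42, 1.24 and 2.18 FPKM in PT and 2.63, 5.50 and 2.55 FPKM with Pushen (0.86 ± 0.33). In Rsad2 the gap between PT library 1 and Pushen library 3 was small, and most of the difference in means came from PT library 2 and Pushen library 2. Ifit1, which binds foreign RNA, stood at 6.31, 2.21 and 6.12 FPKM in PT and 7.20, 13.39 and 8.01 FPKM with Pushen (0.95 ± 0.39). Ifi44 (1.18 ± 0.44), Oasl2 (0.81 ± 0.34) and Herc6 (0.41 ± 0.16) had overlapping groups, as did Cmpk2 (0.39 ± 0.12) in log2 CPM but not in FPKM. Herc6 and Cmpk2 were near their sham level in PT: Cmpk2 stood at 6.78 ± 0.74 FPKM in PT, 6.46 ± 0.30 FPKM in sham and 8.93 ± 1.20 FPKM with Pushen.

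Gvin1, a very large interferon-induced GTPase, had the smallest p of these genes. It stood at 1.38, 0.71 and 1.24 FPKM in PT and at 2.10, 3.58 and 2.28 FPKM with Pushen, a 2.37-fold difference (1.24 ± 0.28; edgeR adjusted p = 0.707). Gbp7, a guanylate-binding protein, stood at 2.61, 2.17 and 2.52 FPKM in PT and 3.22, 4.77 and 3.40 FPKM with Pushen (0.63 ± 0.16). Tgtp1 (0.93 ± 0.26) and Tgtp2 (0.86 ± 0.28) also had no overlap, but they are near-identical copies and their counts are uncertain. Gbp4 (0.81 ± 0.31) and Iigp1 (0.74 ± 0.31) overlapped between the groups. Genes for MHC class I and for antigen processing, which interferon also induces, gave a different count: 0 of 16 had an unadjusted p under 0.05 in either direction, 11 were negative, and the median was -0.06. H2-D1, a class I heavy chain, stood at 196.37, 172.83 and 145.69 FPKM in PT and 168.13, 164.34 and 79.99 FPKM with Pushen (-0.33 ± 0.25).

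The interferon-stimulated response element has as its core GAAA, 2 bases of any kind and GAAA, and was searched on both strands with overlapping matches kept. It was in the windows of 14 of 25 type I interferon genes with a window (56%), in 9 of 9 GTPases (100%) and in 2.96% of the 10857 tested genes. These genes are known for this element, so the share describes the lists and not the treatment. The windows of 3 genes of low p are shown with the core in capitals, which reads TTTC, 2 bases and TTTC where it lies on the opposite strand. They are chr4:156200769-156201068 on the minus strand, with 3 overlapping matches from -78 to -66, chr19:34640639-34640938 on the plus strand, with matches at -104 and -85, and chr3:142530086-142530385 on the plus strand, with a match at -53.
Isg15: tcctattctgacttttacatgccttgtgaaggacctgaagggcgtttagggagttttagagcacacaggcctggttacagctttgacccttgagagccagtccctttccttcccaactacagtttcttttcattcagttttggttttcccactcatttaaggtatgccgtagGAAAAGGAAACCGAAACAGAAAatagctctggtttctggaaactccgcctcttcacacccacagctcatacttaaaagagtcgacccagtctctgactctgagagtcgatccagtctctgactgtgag
Ifit1: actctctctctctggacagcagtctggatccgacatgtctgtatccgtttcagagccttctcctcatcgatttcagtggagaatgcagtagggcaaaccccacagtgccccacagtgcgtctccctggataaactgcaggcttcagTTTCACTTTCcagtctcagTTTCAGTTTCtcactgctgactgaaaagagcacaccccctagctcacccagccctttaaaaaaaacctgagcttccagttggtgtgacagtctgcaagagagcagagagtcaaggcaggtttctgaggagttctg
Gbp7: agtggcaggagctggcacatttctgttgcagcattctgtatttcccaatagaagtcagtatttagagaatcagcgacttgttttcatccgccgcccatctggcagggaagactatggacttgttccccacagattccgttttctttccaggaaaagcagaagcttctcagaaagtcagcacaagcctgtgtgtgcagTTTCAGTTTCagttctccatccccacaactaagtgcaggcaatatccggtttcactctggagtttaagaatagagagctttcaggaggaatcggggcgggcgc

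**Figure D4:**
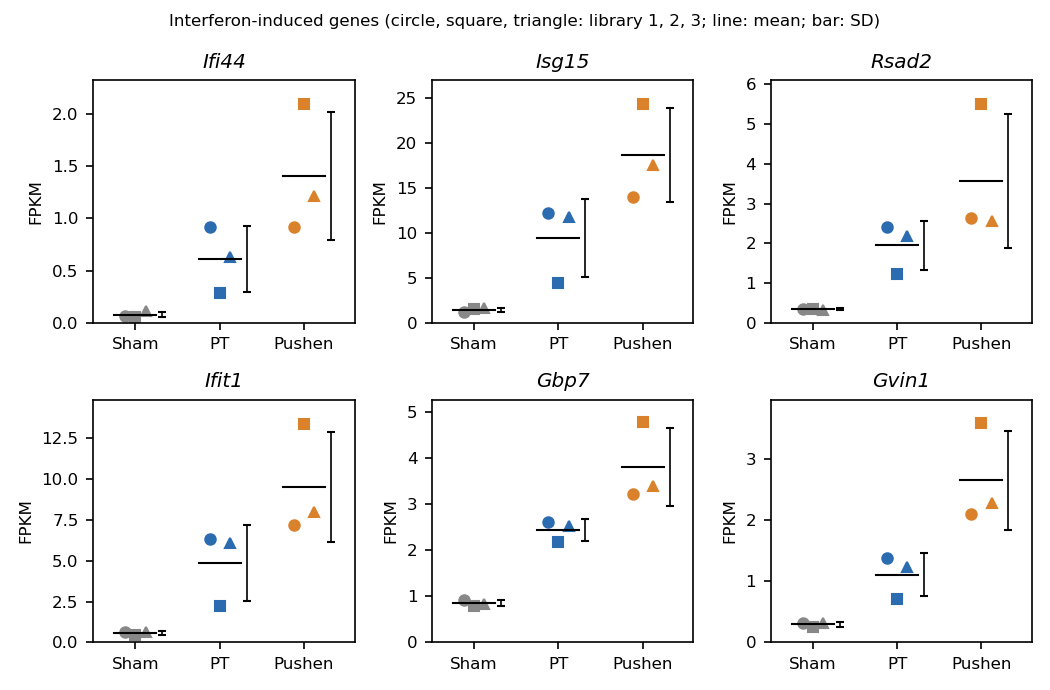
FPKM on the vertical axis, starting at 0, of 6 interferon-induced genes in the sham, PT and Pushen libraries; circles, squares and triangles are libraries 1, 2 and 3, the line is the mean and the bar the SD. Pushen library 2 was the highest and PT library 2 the lowest of the infarct libraries in all 6 genes.

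Genes of disease-associated microglia did not separate the groups. All 24 tested genes of disease-associated microglia had a negative log2 fold change (median -0.31), but 0 had an unadjusted p under 0.05 and 0 had groups apart. Their level over sham was 4.25, 4.10 and 3.60 in PT and 3.87, 3.98 and 2.69 with Pushen, and the median ran from -0.07 without Pushen library 3 to -0.49 without Pushen library 2. Without PT library 3, 4 of them had a p under 0.05 on the lower side, beside 957 of all 16740 tested genes. Without Pushen library 2 the list held 2 such genes. Apoe, a lipid carrier of these cells and of astrocytes, stood at 2284.15, 2165.43 and 1258.24 FPKM in PT and 1434.08, 1551.46 and 854.77 FPKM with Pushen (-0.58 ± 0.32). Ctsd, a lysosomal protease, stood at 646.03, 646.88 and 426.61 FPKM in PT and 456.41, 520.07 and 222.76 FPKM with Pushen (-0.53 ± 0.28). In both genes the lowest library was Pushen library 3 and PT library 3 lay among the Pushen libraries. Trem2, a lipid receptor of microglia, stood at 17.50, 16.31 and 10.54 FPKM in PT and 14.89, 12.40 and 6.65 FPKM with Pushen (-0.40 ± 0.28). Aif1 (-0.08 ± 0.18) and Cd68 (-0.29 ± 0.34), general markers of microglia and phagocytes, had intervals of -0.49 to 0.33 and -1.06 to 0.47.

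Of 15 homeostatic microglial genes 2 had an unadjusted p under 0.05 on the lower side, Olfml3 (-0.96 ± 0.33) and the Fc receptor-like Fcrls (-0.62 ± 0.25), beside 3.46% over all genes. The list's median of -0.24 was -0.08 without PT library 1 and -0.12 without Pushen library 3. That count was 0 without Pushen library 3, 1 without PT library 1 or 2 and 4 without PT library 3. Of 12 genes of monocytes and macrophages 3 did, the transglutaminase F13a1 (-0.71 ± 0.24), the mannose receptor Mrc1 (-0.52 ± 0.21) and the scavenger receptor Stab1 (-0.60 ± 0.25). That count was 0 without Pushen library 3 or PT library 1, and 1 without Pushen library 1, and the median of -0.34 ran from -0.04 without Pushen library 3 to -0.51 without Pushen library 1. F13a1 had no overlap: 1.28, 0.81 and 0.79 FPKM in PT and 0.56, 0.75 and 0.46 FPKM with Pushen. Of 16 complement genes 0 did, with a median of -0.26. It was 0.02 without Pushen library 3, and -0.52, with 1 such gene, without Pushen library 2. The recognition subunit C1qa stood at 406.50, 311.70 and 222.32 FPKM in PT and 285.70, 279.71 and 147.67 FPKM with Pushen (-0.41 ± 0.27). C3, the central component, stood at 56.17, 53.24 and 35.66 FPKM in PT and 35.22, 49.04 and 9.94 FPKM with Pushen (-0.64 ± 0.85), a spread too wide to bound a difference.

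Of 15 genes of the inflammasome and NF-kappaB list, 1 had an unadjusted p under 0.05 on the lower side, beside 3.46% over all genes. This gene was Rela, the transactivating NF-kappaB subunit. It stood at 16.11, 12.80 and 11.40 FPKM in PT and at 10.7 ± 0.8 FPKM (SD, n = 3) with Pushen (-0.34 ± 0.13), without overlap in log2 CPM; in FPKM, Pushen library 1 (11.53) exceeded PT library 3. The list held 0 such genes without PT library 1 or Pushen library 3, and 3 without PT library 3 or Pushen library 2. Its median of -0.31 ran from -0.16 without Pushen library 3 to -0.44 without PT library 3. Il1b, an inflammatory cytokine, stood at 1.38, 1.05 and 0.61 FPKM in PT and 0.85, 0.58 and 0.29 FPKM with Pushen, with overlap (-0.82 ± 0.54). Nlrp3, the inflammasome sensor, was under the expression filter and not tested; it stood at 0.74, 0.77 and 0.30 FPKM in PT and 0.52, 0.66 and 0.33 FPKM with Pushen. Lysosome and phagocytosis genes had a median of -0.27 over 26 genes, which ran from -0.07 without Pushen library 3 to -0.43 without Pushen library 2. Of them 1 stood lower at an unadjusted p under 0.05, the glucuronidase Gusb (-0.58 ± 0.24), beside 3.46% over all genes. The count ran from 0, without PT library 1 or 2 or Pushen library 1 or 3, to 3 without PT library 3 and 6 without Pushen library 2.

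Homeostatic astrocyte genes gave small differences, most of them negative. Of 17 genes of homeostatic astrocytes, 6 had an unadjusted p under 0.05 on the lower side and 0 on the higher, and 7 had every Pushen library below every PT library, beside 3.46% and 5.97% over all genes. The median was -0.21, and -0.13 without PT library 1. The list's mean log2 level over sham was 0.72, 0.60 and 0.49 in PT and 0.42, 0.50 and 0.30 with Pushen. The groups overlapped, with PT library 3 below Pushen library 2. Aldh1l1, a folate enzyme used as an astrocyte marker, stood at 19.47, 17.08 and 15.81 FPKM in PT and at 15.04, 13.95 and 13.71 FPKM with Pushen (-0.30 ± 0.08; edgeR adjusted p = 0.707). Aldoc, the brain aldolase, stood at 244.88, 227.40 and 220.13 FPKM in PT and 196.86, 195.88 and 194.30 FPKM with Pushen (-0.25 ± 0.08). Ndrg2 gave -0.22 ± 0.08. The interval of Aldoc, -0.42 to -0.08, bounds the difference well within a 1.5-fold change, and sham held 166.28 to 187.84 FPKM of Aldoc. The list held 3 such genes without Pushen library 1, and between 4 and 8 with any other library left out.

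Reactive astrocyte genes were more uneven. Of 30 tested, 1 had an unadjusted p under 0.05 on each side, beside 3.03% higher and 3.46% lower over all genes. The median of -0.23 ran from -0.03 without Pushen library 3 to -0.43 without PT library 3. Gfap, the intermediate filament of reactive astrocytes, stood at 442.93, 357.12 and 187.39 FPKM in PT and 300.90, 294.63 and 141.08 FPKM with Pushen (-0.43 ± 0.37), with sham between 12.45 and 20.26 FPKM. Library 3 was the lowest of both groups. Lcn2, a secreted iron-binding protein, stood at 37.98, 32.17 and 18.52 FPKM in PT and 17.37, 17.86 and 6.75 FPKM with Pushen, without overlap (-1.09 ± 0.40), and sham held 0.15 to 0.36 FPKM. Emp1, a membrane protein, lay on the higher side (1.73 ± 0.69) through Pushen library 2, at 3.27 FPKM beside 0.32 and 1.18 FPKM. Neither gene had a p under 0.05 without PT library 1 or 2, nor Lcn2 without Pushen library 3 or Emp1 without Pushen library 2. Without PT library 3, 7 genes of the list stood lower at that p, beside 957 of all 16740 tested genes.

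Scar and vessel genes leaned the same way. All 23 tested genes of the fibrotic scar were negative (median -0.28), with 1 under an unadjusted p of 0.05, beside 3.46% over all genes. That gene, the matrix glycoprotein Sparc, stood at 121.79, 83.80 and 67.76 FPKM in PT and 71.49, 74.88 and 46.96 FPKM with Pushen (-0.51 ± 0.22). The median ran from -0.08 without Pushen library 3 to -0.60 without Pushen library 2. The count was 4 without Pushen library 2, 1 without PT library 3 and 0 with any other library left out. Col1a1, the main fibrillar collagen, stood at 48.32, 35.17 and 24.47 FPKM in PT and 26.61, 36.82 and 10.77 FPKM with Pushen (-0.55 ± 0.39). Of 20 genes of endothelium and the blood-brain barrier, 3 had a p under 0.05 on the lower side, beside 3.46% over all genes. Mfsd2a, the barrier's lipid transporter, stood at 14.22, 12.24 and 12.96 FPKM in PT and 9.41, 9.43 and 9.85 FPKM with Pushen (-0.47 ± 0.12), and sham held 9.09, 12.69 and 11.75 FPKM. The receptor kinase Tie1 (-0.38 ± 0.13) did not overlap either, and the adhesion molecule Pecam1 (-0.32 ± 0.14) did. Without PT library 1 the list held 1 such gene and its median of -0.16 was -0.10. Of 13 genes of pericytes and smooth muscle 2 did, the receptor Notch3 (-0.43 ± 0.15) and the proteoglycan Cspg4 (-0.32 ± 0.13); the count was 0 without PT library 1 or Pushen library 3, 1 without sham library 1 or 3, 4 without PT library 3 and 5 without Pushen library 2.

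Neuronal genes differed within the spread. Of 18 pan-neuronal genes 14 were positive (median 0.13) and 0 had an unadjusted p under 0.05; the median was 0.01 without Pushen library 3. Syt1, the calcium sensor of vesicle release, stood at 97.28, 136.46 and 145.75 FPKM in PT and 153.73, 150.94 and 175.46 FPKM with Pushen, without overlap (0.33 ± 0.15), and sham held 186.81 to 215.81 FPKM. Rbfox3, a neuronal splicing factor, did not differ beyond its error (-0.02 ± 0.11, interval -0.27 to 0.23). Of 22 synapse genes 14 were positive and 8 negative (median 0.05), and 0 had a p under 0.05; the scaffold genes Dlg4 (-0.15 ± 0.09) and Shank3 (-0.39 ± 0.23) lay on the lower side, with overlap. Sv2b, a vesicle protein, stood at 26.89, 42.90 and 42.84 FPKM in PT and 47.30, 45.64 and 53.68 FPKM with Pushen (0.37 ± 0.17). Without PT library 3, 7 synapse genes and 2 pan-neuronal genes had a p under 0.05 on the higher side. Of all 16740 tested genes, 963 did so in that fit. PT library 1 was the lowest of the infarct libraries for Syt1 and Sv2b and the highest for striatal neuron genes.

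Genes often measured in stroke recovery gave intervals around 0. Map2, a dendritic protein, stood at 8.37, 10.69 and 13.96 FPKM in PT and 12.28, 16.38 and 12.57 FPKM with Pushen (0.31 ± 0.18). Gap43, a growth cone protein, differed by 0.13 ± 0.18, an interval of -0.28 to 0.53. Bdnf, a neurotrophin, stood at 1.22, 2.18 and 3.26 FPKM in PT and 2.27, 2.07 and 2.85 FPKM with Pushen (0.10 ± 0.30). Vegfa, an angiogenic factor, was even in all infarct libraries, from 9.88 to 12.88 FPKM (0.04 ± 0.13, interval -0.24 to 0.33). Dcx, a marker of young neurons, was low in PT library 1 (0.07 FPKM) and ran from 2.01 to 2.77 FPKM over the other 5 infarct libraries, and its interval of -1.55 to 2.51 bounds nothing.

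Of 24 myelin and oligodendrocyte genes 0 had an unadjusted p under 0.05, with a median of -0.04. Without PT library 3, 7 stood lower at that p, beside 957 of all 16740 tested genes. Mbp, a major myelin protein, stood at 126.62, 102.33 and 65.99 FPKM in PT and 90.61, 68.85 and 83.84 FPKM with Pushen (-0.29 ± 0.24). The lineage factors Olig1 (-0.25 ± 0.17) and Sox10 (-0.27 ± 0.21) overlapped, while Sox8 had been chosen among genes whose groups did not.

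Of 19 circadian clock genes, 4 had an unadjusted p under 0.05 on the lower side and 0 on the higher, beside 3.46% and 3.03% over all genes, with a median of -0.07. Per1, a clock repressor that is also induced by activity, stood at 24.48, 23.43 and 31.31 FPKM in PT and 18.96, 20.35 and 18.64 FPKM with Pushen (-0.46 ± 0.14; edgeR adjusted p = 0.707). Tef, an output factor of the clock, stood at 37.36, 34.00 and 36.15 FPKM in PT and at 14.44, 34.05 and 13.15 FPKM with Pushen (-0.81 ± 0.31). Without Pushen library 2, the library that kept the PT level, its log2 fold change was -1.38 (edgeR adjusted p = 0.00521). Leaving out the library at the PT level brings a smaller p by itself, so this p is no separate result. Ciart (-0.57 ± 0.22) and Nfil3 (-0.34 ± 0.15) were the others. The list held 1 such gene without Pushen library 3, and 2 without PT library 3 or Pushen library 1.

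Of 22 cholesterol biosynthesis genes 1 stood on each side at an unadjusted p under 0.05, Fdft1 on the higher and Mvd (-0.36 ± 0.12), the mevalonate decarboxylase, on the lower. Over all genes 3.03% stood higher and 3.46% lower. Mvd stood at 9.13, 8.39 and 9.82 FPKM in PT and 7.04, 7.46 and 6.90 FPKM with Pushen, without overlap. The enzymes of the pathway thus did not share a direction, and the median was 0.02. Of 25 cytosolic ribosomal proteins 4 stood lower at that p, Rpl3, Rps2, Rplp0 and Rps14, with log2 fold changes of -0.16 to -0.37, beside 3.46% over all genes. The count was 0 without PT library 1, Pushen library 2 or Pushen library 3. It was 1 or 2 without any sham library, PT library 2 or Pushen library 1. Without PT library 3 it was 7, where 957 of all 16740 tested genes stood lower. Ribosomal protein genes have many near-identical pseudogenes. The striatal neuron list gave 6 of 14 lower at that p, with a median of -1.29, and 0 of 14 with a median of -0.05 without PT library 1. The count was 0 without Pushen library 3, 1 or 2 without any sham library or Pushen library 1 or 2, and 12 without PT library 3. Adora2a, an adenosine receptor of striatal neurons, stood at 27.67, 3.81 and 1.05 FPKM in PT and at 2.73, 2.54 and 1.28 FPKM with Pushen. Of 10 choroid plexus genes 0 had such a p, and the median of 0.18 ran from -0.97 without Pushen library 2 to 1.55 without PT library 1.

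**Figure D5:**
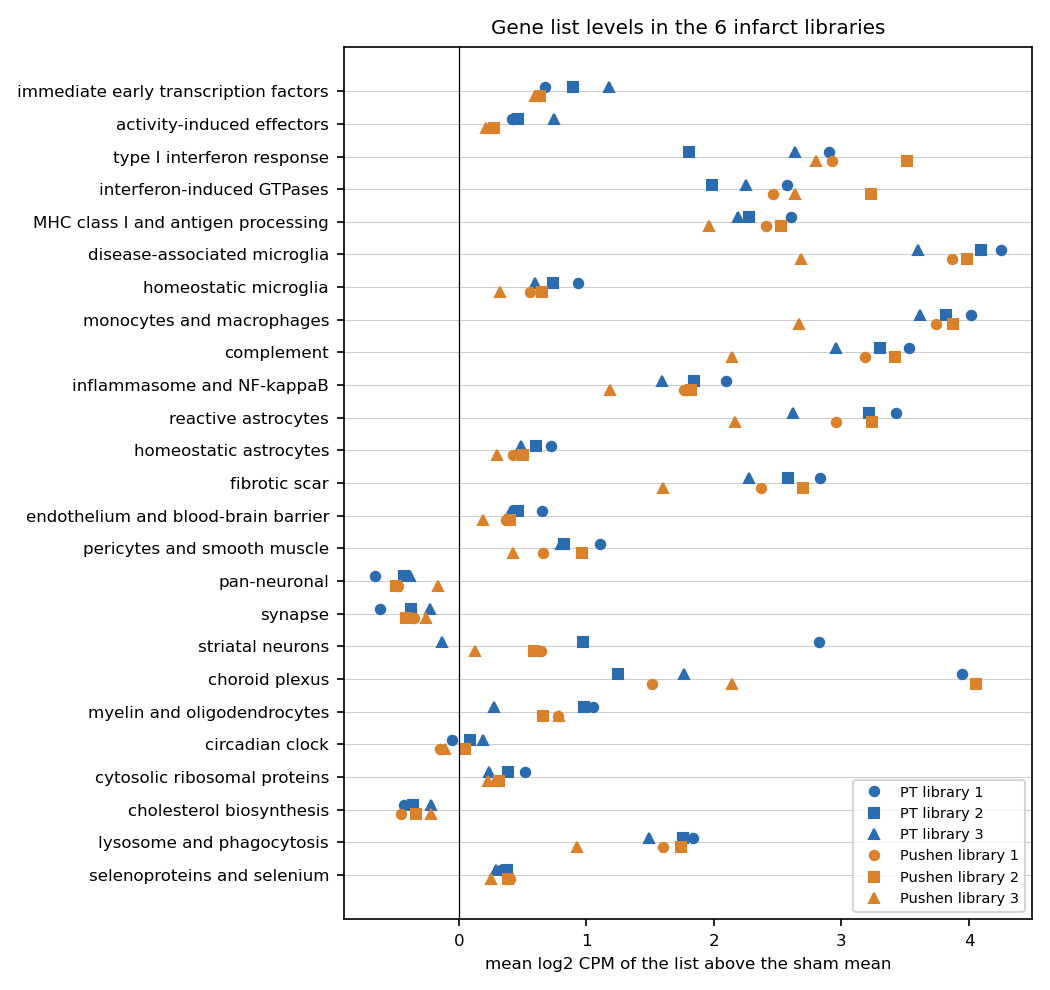
Mean log2 CPM of each described gene list above the sham mean (horizontal axis) in the 6 infarct libraries, PT above and Pushen below on each row; circles, squares and triangles are libraries 1, 2 and 3. Of the 25 lists drawn, the groups are apart for the immediate early transcription factors, the activity-induced effectors and the endothelium list. The first lies narrowly apart, at 0.68 to 1.18 in PT and 0.60 to 0.63 with Pushen. The effectors lie at 0.42 to 0.74 and 0.21 to 0.28, and the endothelium list, narrowly, at 0.41 to 0.65 and 0.19 to 0.40. Of single genes, 6.25% stood higher and 5.97% lower without overlap. Pushen library 3 lies at the low end of most glial, immune and scar lists.

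Over all 48 lists, 36 medians were negative and 12 positive. None of the 771 tested list genes was called by edgeR at the adjusted threshold.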

How the data were processed

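Libraries came from an Illumina TruSeq kit, per the labels' protocols. The authors deposited unnormalized counts for each gene in each library. Beside them stand FPKM values that the authors scaled to gene length and library size. The submitters' processing notes name Bowtie 0.12.2 and build mm8. Start and end nevertheless equal those of GRCm38 for 51957 of the 55141 identifiers also found in GENCODE M21 (94.2%). For the counter and its strand setting the sources used here give nothing, so overlapping genes and near-identical copies have uncertain counts. All value columns matched a library by name (0 left over).

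Counts were scaled by TMM and fitted over all 9 libraries with edgeR 4.0.16 in R 4.3.3, without covariates. The quasi-likelihood test was made for Pushen minus PT over the 16740 genes averaging 0.5 FPKM or more, with Benjamini-Hochberg adjustment and a threshold of 0.05. The standard error is the log2 fold change over the square root of F. Libraries of a group were compared and none was a duplicate (chi-square per gene of at least 58.4).

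The 48 gene lists, the genes named and the tests were chosen with earlier results of these data known, so lists are described and not tested. They hold 848 genes, all present in the deposited table, of which 771 reached the filter. Of the genes, 44 appear more than once. The genes chosen for the text are the 12 of smallest p on each side that have a proper symbol, reach 1 FPKM in the higher group and do not overlap in log2 CPM. Added are 16 genes looked at in any case, up to 4 genes of smallest p per described list, and up to 8 for the immediate early, effector and interferon lists. Some genes so chosen are not reported here.

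Alternatives were other filters and scalings, DESeq2 1.42.0, the 6 compared libraries alone, limma 3.58.1 on weighted counts and on log2(FPKM + 0.1) and log2(FPKM + 1), a block for the replicate number, and leaving out each library. Omission of PT library 1 with Pushen library 2 was chosen after seeing the data. The scripts were tested on simulated data. Promoter motifs were counted in RefSeq windows, with Python 3.11.15, and figures drawn with matplotlib 3.10.9. With 1 library a dose, dose was not fitted.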

Additional observations from a re-analysis of the deposited data

How the results depend on the processing

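DESeq2 called 20 genes higher and 28 lower at the adjusted threshold, where the edgeR test called 0. Of these 48, 40 had groups that did not overlap, and 7 had no count in any Pushen library. The 6 compared libraries alone gave 1 lower, Pet117. With library weights in voom, 767 genes stood higher and 883 lower at an unadjusted p under 0.05. Without PT library 1 and Pushen library 2, edgeR called 1 higher (Erbb4) and 1 lower (Tef), and 323 stood higher at an unadjusted p under 0.05. Leaving out each library in turn gave 0 to 3 genes called higher and 0 to 2 called lower, and 363 to 963 higher and 381 to 957 lower at an unadjusted p under 0.05. Among the genes called were Pet117 without sham library 1, Sike1 without PT library 3, Tef without Pushen library 2, and Gatad2b, Coa7, Gm10273 and Mir3072 without Pushen library 3. Those fits have fewer samples, and the cause was not tested further. For Tef, Gatad2b and Coa7 the library left out was the Pushen library nearest PT.

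The correlations of the deviations of PT and Pushen libraries of the same replicate number were 0.037, -0.024 and 0.099. The last value, for library 3, was the highest of all pairs of a PT and a Pushen library. Values this low show no strong pairing by number, but they cannot exclude a weaker one. The fit with a replicate block called 0 genes (smallest adjusted p 0.0884). PT library 1 correlated best with Pushen library 2 (0.089).

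Signs changed for 12 genes, none of them called. With voom weights Rbfox3 was 0.0091, Gap43 -0.0595, Vegfa -0.0779 and H2-Q6 0.0804. Without PT library 1 and Pushen library 2, Mbp was 0.0458, Bdnf -0.0938 and Dcx -0.19. With each library left out, Aif1 ran from -0.21 to 0.0685, Cd68 from -0.51 to 0.0566, Rbfox3 from -0.0852 to 0.10, Gap43 from -0.13 to 0.26, Bdnf from -0.19 to 0.49, Vegfa from -0.0814 to 0.13, Dcx from -0.0877 to 1.03, Kcnj13 from -0.19 to 0.84, Kcne2 from -0.63 to 2.0 and Enpp2 from -0.28 to 0.68. The other settings tried kept the sign of these genes. Of the list medians, the type I interferon list was 1.09 under voom weights, the effectors -0.09 without PT library 3, and the striatal list -0.05 without PT library 1 and -0.11 without PT library 1 and Pushen library 2. Each library held at least 57437342 counts, and the part of depth in the width of the intervals was not tested.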

Other observations

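Gene groups not described above gave 0 to 3 genes each at an unadjusted p under 0.05, where 3.03% of all genes stood higher and 3.46% lower. Of 19 apoptosis genes 2 had an unadjusted p under 0.05 on the lower side, and of 20 axon growth genes 2 on the higher and 1 on the lower. Of 11 neurotrophin and receptor genes 1 stood higher and 2 lower at that p, and of 16 metallothionein and glucocorticoid response genes 2 higher and 1 lower. Oxidative phosphorylation (1 higher of 23, median 0.00), glycolysis and lactate transport (1 lower of 23, median 0.00), heat shock and chaperones (1 lower of 20, median -0.01) and NRF2 and antioxidant enzymes (0 of 21, median -0.08) had medians near 0. The 8 tested blood cell genes were all negative (median -0.41), with 0 under 0.05 and levels above sham of -0.67, 0.34 and 0.79 in PT and -0.71, 0.30 and -0.31 with Pushen.

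Some genes stood at distinct levels in libraries of the same group. The genes that follow were chosen after their values were seen. Pet117, a mitochondrial assembly factor, had 388, 548 and 543 counts in the PT libraries and 1 in each Pushen library, but also 535 in sham library 1 and 1 in each of the other two sham libraries. Sike1 had 738, 825 and 3461 counts in PT and between 3210 and 4065 in the Pushen and sham libraries. Tef had 7443, 22422 and 7326 counts in the Pushen libraries and between 20823 and 26154 in the other 6. Gatad2b had 4224, 5694 and 1473 counts with Pushen and between 1282 and 1671 in the PT and sham libraries. Atp6v1g2 had 8379, 25274 and 27977 counts with Pushen, 8369 to 10966 in PT and 12274 to 13743 in sham. Over 14972 genes with a mean of at least 100 counts, 388 differed at least 4-fold between the libraries of PT or of Pushen, 229 within PT and 235 within Pushen.

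The gene model Gm10273 had the smallest unadjusted p of all tested genes in the edgeR quasi-likelihood test (adjusted p = 0.375 in edgeR). It had 32, 26 and 19 counts in PT, 14, 31 and 17 in sham, and 309, 435 and 124 with Pushen. Messages of blood plasma proteins made in the liver were present in 3 of the 9 libraries. Alb, serum albumin, had 3505 and 2641 counts in PT libraries 1 and 2, 2174 in sham library 3, 4 in sham library 2 and 0 in the other 5. Fabp1, a fatty acid carrier of liver and gut, had 456, 360 and 264 counts in the same 3 libraries and 0 elsewhere, and Serpina3k had 482, 430 and 378. These genes were among those that DESeq2 called lower with Pushen.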
